A study of Mus musculus with 6 samples.

Results

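Genes that mark the fibroblasts of the meninges were examined in hippocampal RNA of WT mice and of TG mice, in which the G82R and L85P changes had been knocked in to Slc1a2, the gene of the astrocytic glutamate transporter GLT-1. The set was a list of 10 gene symbols, Dcn, Lum, Ogn, Fmod, Islr, Mgp, Aebp1, Aldh1a2, Slc22a6 and Slc47a1, and each symbol matched 1 of the 54532 genes of the deposited expression table. The WT group held 3 libraries (WT1 to WT3) and the TG group held 3 libraries (TG1 to TG3). Both changes were introduced by CRISPR/Cas9 on a C57BL/6N background, and the controls were WT littermates. Neither age nor the number of altered alleles was given for the sequenced mice. The libraries held 16081281 to 18751057 reads on genes. Values are given as FPKM (fragments per kilobase of gene, scaled by a divisor of the library). They can be compared between genes because they are scaled to gene length. The divisor was not the number of reads on genes, since in TG1 it was 15824455 against 16116117 such reads. All libraries carried the Y-linked gene Ddx3y at 10.6 to 12.3 FPKM and Xist at 0.0181 FPKM or less, so they did not differ in this respect. In FPKM, Slc1a2 itself stood at 202, 199.5 and 177 across WT1 to WT3, against 222, 207 and 217 across TG1 to TG3, and FPKM cannot show the altered bases.

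The meninges are the membranes that wrap the brain, and their fibroblasts lie in the pia and arachnoid layers and follow larger vessels into the tissue. These cells lay down a collagen matrix that is organised by small leucine-rich proteoglycans, they release retinoic acid, and the cells of the arachnoid barrier carry transporters that move organic ions between cerebrospinal fluid and blood. The hippocampus itself is made of neurons and glia, and a dissected hippocampus can carry some pia and vessels on its surface. In bulk RNA, fewer cells of a type and less RNA per cell cannot be told apart. The tissue label was checked on markers of hippocampal neurons, which were present in every library, with Neurod6 at 71.5 to 91.0 FPKM, Slc17a7 at 237 to 322 FPKM, Spink8 at 20.6 to 38.8 FPKM and Prox1 at 9.81 to 14.4 FPKM. The meningeal genes lay between 0.392 and 22.5 FPKM, and the fibroblast collagens Col1a1 (0.545 to 1.67 FPKM), Col1a2 (0.765 to 1.72 FPKM) and Col3a1 (0.0966 to 0.463 FPKM) were low but above 0 in every library.

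RefSeq promoter sequence (GRCm38.p6) was found for 6 of the 10 genes, and 3 of these 6, Fmod, Aldh1a2 and Slc22a6, start at exactly the base at which the deposited table starts the gene. They are shown because they also stood among the genes whose level differed most between libraries. In the annotation GENCODE M21, the coordinates of Slc22a6 were not those of the deposited table. Each line gives the 250 bases before the start, 5′ to 3′ on the strand of the gene, and capitals mark CCAAT, the only motif of those searched that these windows hold.
Fmod, chr1:134037004-134037253, plus strand: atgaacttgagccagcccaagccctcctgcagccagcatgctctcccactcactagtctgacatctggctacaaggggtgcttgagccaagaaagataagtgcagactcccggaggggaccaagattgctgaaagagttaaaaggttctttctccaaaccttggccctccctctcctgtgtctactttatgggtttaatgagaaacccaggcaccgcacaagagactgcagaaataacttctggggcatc
Aldh1a2, chr9:71215539-71215788, plus strand: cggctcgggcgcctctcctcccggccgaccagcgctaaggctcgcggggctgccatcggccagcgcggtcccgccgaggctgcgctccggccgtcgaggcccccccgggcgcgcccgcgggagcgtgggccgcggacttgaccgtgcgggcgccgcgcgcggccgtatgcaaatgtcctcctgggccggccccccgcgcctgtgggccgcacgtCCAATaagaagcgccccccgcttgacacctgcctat
Slc22a6, chr19:8617746-8617995, plus strand: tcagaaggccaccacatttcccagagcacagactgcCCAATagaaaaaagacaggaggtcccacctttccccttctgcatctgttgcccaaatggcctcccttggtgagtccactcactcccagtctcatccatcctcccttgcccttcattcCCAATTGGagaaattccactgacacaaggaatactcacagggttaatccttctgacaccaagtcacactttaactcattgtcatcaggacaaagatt

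These windows differ widely in composition. The Aldh1a2 window is 77.6% G and C, the Fmod window 51.2% and the Slc22a6 window 48.4%, while the median over 32851 RefSeq promoter windows of this length was 52.4%. The motifs searched on both strands were the TATA box TATAAA, the CCAAT box, the GC box GGGCGG, the AP-1 motif TGANTCA, the forkhead motif GTAAACA and the retinoic acid receptor motif AGGTCA. The motif CCAAT occurs 1 time in the Aldh1a2 window, 36 bases before the start, and 3 times in the Slc22a6 window, where 2 of the matches overlap on opposite strands, and it occurs in 33.8% of all windows. Of the 6 windows, 2 hold CCAAT and 1 (Ogn) holds TATAAA, which occurs in 12.4% of all windows. The GC box was in none of the 6 windows and in 32.7% of all windows, and the same held for the AP-1 motif (6.75% of all), the forkhead motif (3.17%) and the retinoic acid receptor motif (14.0%). A match is only a match of letters, and the absence of one says nothing of the factor.

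By mean FPKM over the 6 libraries, the order was Mgp (17.6), Dcn (9.74), Islr (6.40), Aebp1 (4.61), Fmod (4.31), Aldh1a2 (3.60), Ogn (3.00), Lum (1.94), Slc22a6 (1.46) and Slc47a1 (0.529). The ranges of Mgp and Dcn did not overlap, nor did those of Dcn and Islr. From Islr downwards, the ranges of all neighbours in the order overlapped, although Islr exceeded Aebp1, and Slc22a6 exceeded Slc47a1, in each of the 6 libraries. The reads behind a value ran from 21 for Slc47a1 in TG1 to 1522 for Dcn in WT1.

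**Figure D1:**
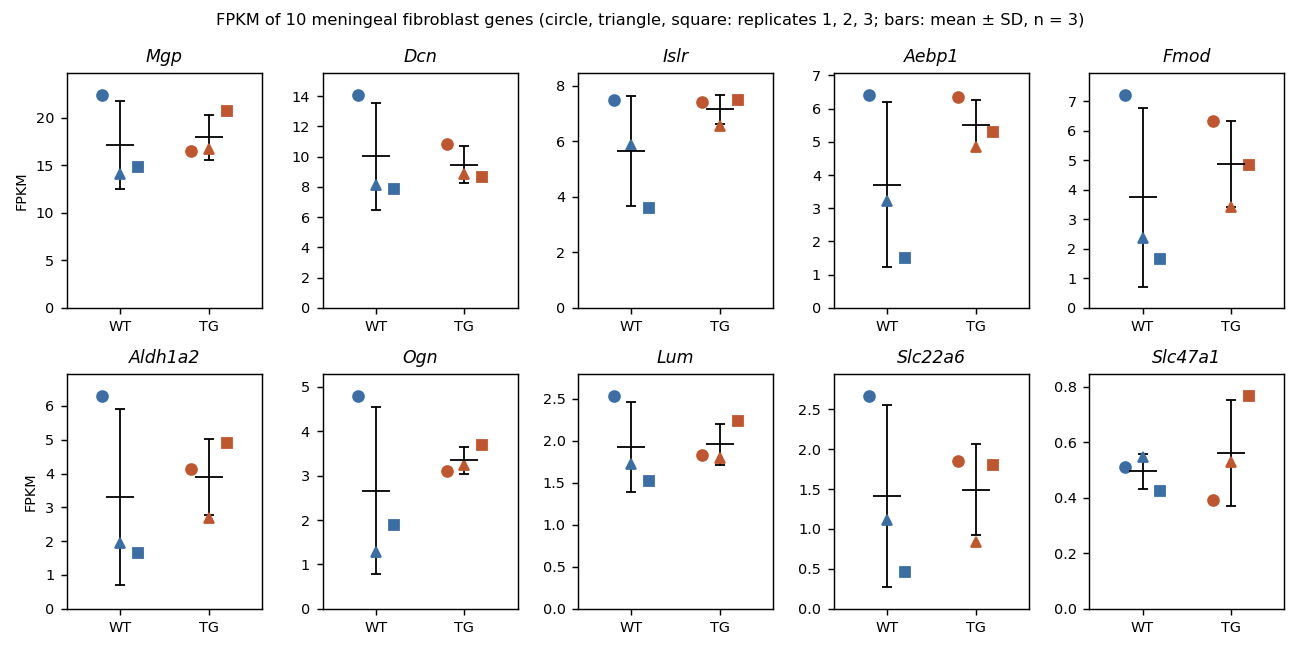
FPKM of each of the 10 genes on a linear axis from 0, ordered by mean level, with WT libraries in blue and TG libraries in orange, and the mean ± SD of each group (n = 3). In 8 of the 10 panels the highest point is WT1, and the TG points lie within the WT range in those panels.

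The small leucine-rich proteoglycans of the set bind collagen and set the width and spacing of its fibrils. Decorin, the product of Dcn, also binds growth factors of the TGF-beta family. The FPKM of Dcn (ENSMUSG00000019929, chromosome 10 from 97479609 to 97518143 in GRCm38) was 14.1, 8.10 and 7.86 across WT1 to WT3, against 10.9, 8.82 and 8.68 across TG1 to TG3. WT1 was the highest library, followed by TG1, and all TG values lay inside the WT range. The means were 10.02 ± 3.54 for WT and 9.45 ± 1.22 for TG mice (SD, n = 3 each), and the log2 fold change came to -0.04 (standard error 0.224). Lum encodes lumican, which lies next to Dcn on chromosome 10 (97565128 to 97572703, ENSMUSG00000036446) with 47.0 kb between them. It had an FPKM of 2.54, 1.72 and 1.53 across WT1 to WT3, against 1.83, 1.80 and 2.24 across TG1 to TG3, and again the TG values lay inside the WT range. Its log2 fold change was 0.05 (standard error 0.203).

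Fibromodulin, encoded by Fmod (ENSMUSG00000041559, chromosome 1 from 134037254 to 134048277), shares collagen binding sites with lumican. Its FPKM was 7.23, 2.38 and 1.65 across WT1 to WT3, against 6.35, 3.43 and 4.84 across TG1 to TG3. WT1 held 3.04 times the level of WT2 and 4.39 times that of WT3, so the WT libraries spanned more than the TG libraries, and TG1 was nearest to WT1. The means were 3.75 ± 3.03 and 4.87 ± 1.46 (SD, n = 3 each), and the log2 fold change came to 0.61 (standard error 0.505). Ogn (ENSMUSG00000021390, chromosome 13 from 49608046 to 49624501) encodes osteoglycin, a proteoglycan of the same family. It had an FPKM of 4.81, 1.28 and 1.89 across WT1 to WT3, against 3.10, 3.24 and 3.69 across TG1 to TG3. The 3 TG libraries lay close to each other, above WT2 and WT3 and below WT1. The group means were 2.66 ± 1.88 and 3.34 ± 0.307 (SD, n = 3 each), and the log2 fold change was 0.53 (standard error 0.417).

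Islr, Mgp and Aebp1 encode other matrix or surface proteins of fibroblasts. Islr (ENSMUSG00000037206, chromosome 9 from 58156268 to 58204306) encodes a membrane-anchored protein with leucine-rich repeats and an immunoglobulin domain. Its FPKM was 7.49, 5.88 and 3.58 across WT1 to WT3, against 7.41, 6.54 and 7.50 across TG1 to TG3, so WT1 was at the TG level and WT3 lay below all others. The log2 fold change was 0.39 (standard error 0.243). Exons of Islr overlap those of Islr2 on the same strand, and 5.05% of the 50-base windows along its transcripts are found in another gene too. The share of its reads that this touches was not determined. The other 9 genes shared no such stretch and no exon. Stretches were compared only in the direction of the transcripts.

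Matrix Gla protein, the product of Mgp (ENSMUSG00000030218, chromosome 6 from 136872435 to 136875823), is a vitamin K-dependent inhibitor of calcification that is also made in vessel walls. Its FPKM was 22.5, 14.1 and 14.8 across WT1 to WT3, against 16.5, 16.7 and 20.7 across TG1 to TG3, and the log2 fold change came to 0.09 (standard error 0.184). WT1 and TG3 were the highest libraries. Aebp1 (ENSMUSG00000020473, chromosome 11 from 5861947 to 5872088) encodes a secreted, collagen-binding protein with a carboxypeptidase-like domain. It had an FPKM of 6.42, 3.22 and 1.50 across WT1 to WT3, against 6.34, 4.85 and 5.31 across TG1 to TG3. Here WT1 and TG1 were nearly equal and WT3 was the lowest, at less than any TG library. The means were 3.71 ± 2.50 and 5.50 ± 0.761 (SD, n = 3 each), and the log2 fold change of 0.77 (standard error 0.449, 95% interval -0.28 to 1.82) was the highest of the 10 genes with all 6 libraries. Without WT3 it fell to 0.26, below the 0.40 of Ogn.

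Aldh1a2 (ENSMUSG00000013584, chromosome 9 from 71215789 to 71296243) encodes the dehydrogenase that turns retinaldehyde into retinoic acid. Its FPKM was 6.31, 1.94 and 1.65 across WT1 to WT3, against 4.13, 2.69 and 4.89 across TG1 to TG3. WT1 exceeded every TG library, and WT2 and WT3 lay below every TG library. The means were 3.30 ± 2.61 and 3.90 ± 1.12 (SD, n = 3 each), and the log2 fold change came to 0.45 (standard error 0.483).

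The set holds 2 transporters of organic ions. Slc22a6 (ENSMUSG00000024650, chromosome 19 from 8617996 to 8628299) encodes an exchanger that takes up organic anions. It had an FPKM of 2.67, 1.11 and 0.464 across WT1 to WT3, against 1.85, 0.831 and 1.80 across TG1 to TG3, so the highest library was 5.76 times the lowest, the widest range of the set, and both extremes were WT libraries. Its log2 fold change was 0.29 (standard error 0.571). Slc47a1 (ENSMUSG00000010122, chromosome 11 from 61343401 to 61378345) encodes a proton-coupled exporter of organic cations. Its FPKM was 0.512, 0.549 and 0.426 across WT1 to WT3, against 0.392, 0.528 and 0.769 across TG1 to TG3, on 21 to 47 reads per library. It did not follow the others, since WT1 lay between WT2 and WT3 and TG1 was the lowest library.

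None of the 10 genes had an adjusted p under 0.05 for TG against WT in limma (adjusted p from 0.789 to 0.974), while 0.00955% of the 20952 genes tested did. At an unadjusted p under 0.05, 0 of the 10 were higher and 0 were lower in TG mice, against 3.13% and 2.78% of the genes tested. With limma-voom on the recovered reads the count was 0 as well. Its smallest unadjusted p was 0.0521 in Aebp1, against 0.128 for that gene in limma on FPKM. In no gene did the groups lie apart, whereas the TG libraries lay all above the WT libraries in 6.35% and all below them in 5.71% of the genes tested. Of the 30 values measured in TG libraries, 27 lay inside the WT range of their gene. WT1 was the highest of the 6 libraries in 8 of the 10 genes, against 10.9% of all genes tested, so no TG value could exceed the WT range there. For the 27 of 30 values inside the WT range no share over all genes was computed, and that count is a description only. The fold change was positive in 9 of the 10 genes and in 49.6% of the genes tested, but 4 of these 9 (Lum, Mgp, Slc22a6 and Slc47a1), as well as Dcn, turned sign when 1 library was left out. The median log2 fold change was 0.34, against 0.00 over the genes tested. The standard errors were large, and the 95% intervals ran from -0.56 to 0.49 for Dcn, from -0.43 to 0.52 for Lum and from -0.58 to 1.79 for Fmod, so a difference of 2-fold in Fmod lies within its interval.

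The WT libraries spread widely in the 10 genes, and this spread rested most, but not only, on WT1. The coefficient of variation had a median of 51.3% over the 10 genes in WT mice and 13.5% in TG mice, while the medians over the 13325 genes that averaged 1 FPKM or more were 10.1% and 7.76%. It was larger in WT than in TG mice in 9 of the 10 genes, the exception being Slc47a1. Without WT3 the median over the 10 genes in WT mice fell from 51.3% to 42.6%, and that over the 13325 genes fell from 10.1% to 5.87%. Without WT1 the median over the 10 genes in WT mice fell from 51.3% to 21.7%, and that over the 13325 genes was 9.89%. The coefficient was then larger in WT mice in 4 of the 10 genes. This check was chosen after seeing the data. Counting of reads alone gives a coefficient of variation of 3.62% for Dcn and 9.90% for Fmod in the library with the fewest reads, and 21.8% for Slc47a1.

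WT1 was the highest of the 6 libraries in 8 of the 10 genes, and it was the highest in 10.9% of all genes tested. It exceeded the other WT libraries in 9 of the 10 genes, against 29.0% of all genes tested. WT3 was the lowest library in 7 of the 10 genes and in 25.4% of all genes tested. As log2 deviations from the mean of the WT libraries, the 10 genes had a median of 0.77 in WT1, -0.19 in WT2, -0.44 in WT3, 0.44 in TG1, 0.04 in TG2 and 0.59 in TG3. By this median, the TG libraries lay between WT1 and the other WT libraries.

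**Figure D2:**
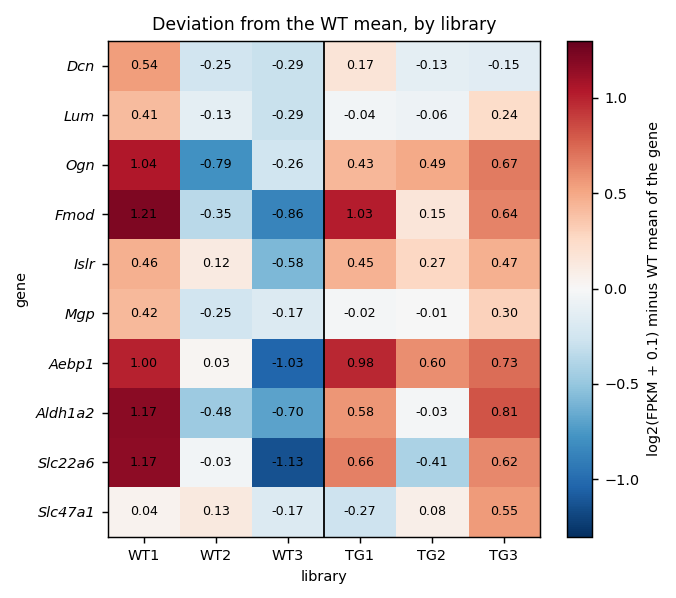
Log2(FPKM + 0.1) of each gene (rows) in each library (columns) minus the mean of the 3 WT libraries, from blue (lower) to red (higher). The WT1 column is above 0 in all 10 genes, from 0.04 in Slc47a1 to 1.21 in Fmod, and the WT3 column is below 0 in all 10.

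Because 1 library held the highest values, the comparison was repeated with each library left out. Without WT1, 6 of the 10 genes (Ogn, Islr, Fmod, Mgp, Aldh1a2 and Aebp1) had a higher TG level with an unadjusted limma p under 0.05, against 3.66% of the genes tested in that fit, and the median log2 fold change rose from 0.34 to 0.75. The 3 TG libraries then lay above both WT2 and WT3 in 8 of the 10 genes, against 12.4% of the genes tested. WT1 lay above the WT mean in all 10 genes, so leaving it out had to raise every fold change. That fit keeps only WT2 and WT3 in the WT group. Its counts follow in part from the choice of the library with the highest values, and they are no test of the groups. The log2 fold changes without WT1 were 1.27 in Aebp1 (standard error 0.306), 1.21 in Fmod (standard error 0.281), 1.05 in Ogn (standard error 0.192) and 1.04 in Aldh1a2 (standard error 0.257), and none of the 10 had an adjusted p under 0.05 (smallest 0.438 in Ogn). Leaving out any of the other libraries gave 0 genes at an unadjusted p under 0.05 in either direction. Without WT3, which was the lowest library in most of the genes, the log2 fold change fell to 0.26 in Aebp1, 0.18 in Fmod, 0.10 in Aldh1a2 and 0.10 in Islr, and the median over the 10 genes fell to 0.07. Without WT2, the lowest library of Ogn, that gene fell from 0.53 to 0.14. No label marks WT1 as different from the other WT libraries, so the value with all 6 libraries is the one that compares the groups. With TG3 as the only TG library, 2 of the 10 genes lay above all WT libraries, against 23.4% of the genes tested.

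**Figure D3:**
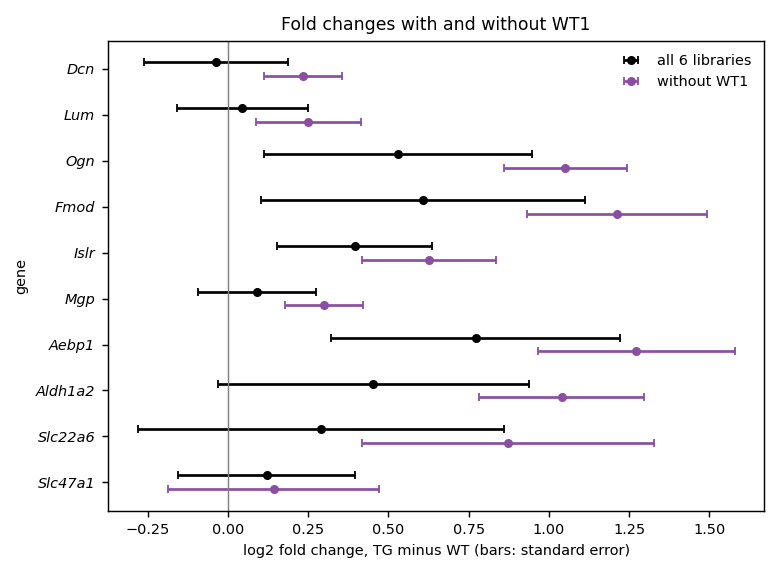
Log2 fold change of TG against WT for each gene, with its standard error, in the fit of all 6 libraries (black) and in the fit without WT1 (purple). All 10 estimates lie further to the right without WT1, and Slc47a1 moves least, from 0.12 to 0.14. The direction of this shift was fixed in advance, because WT1 lies above the WT mean in all 10 genes.

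The genes varied together over the libraries. Pearson's r of log2(FPKM + 0.1) over the 6 libraries was positive in 44 of the 45 pairs, with a median of 0.782 and a range from -0.198 to 0.982. Among the 36 pairs without Slc47a1, the lowest r was 0.594. These values share the same 6 libraries, no such values were computed for pairs of other genes, and they are given as a description. Of 11908 other protein-coding genes that averaged 1 FPKM or more, those most like the mean standardized level of the 10 genes were S1pr3, a receptor for sphingosine-1-phosphate (r = 0.995), Slc13a3, a sodium-coupled dicarboxylate transporter (r = 0.979), St7l (r = 0.977), Plxnd1, a semaphorin receptor (r = 0.977), and Ccdc127 (r = 0.976). Spearman's rho was 1 for S1pr3, Slc13a3 and Plxnd1 and 0.943 for St7l and Ccdc127. Pearson's r lay between 0.944 for Plxnd1 and 0.990 for Ccdc127 without WT1 and WT3, the libraries farthest from the median. The named genes were picked for the highest r among 11908 genes over the same libraries. High values of r and rho follow in part from that choice, and they are no test of a link to the 10 genes. The sizes differed, since Slc13a3 had an FPKM of 4.26, 1.76 and 1.41 across WT1 to WT3, against 3.41, 2.20 and 3.45 across TG1 to TG3, whereas Ccdc127 stayed between 6.08 and 6.82 in all libraries.

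Genes of the proteoglycan family lie in clusters, and the members of the set were compared with their neighbours. On chromosome 13, Ecm2, Aspn, Omd and Ogn follow each other with 11.7, 14.9 and 15.2 kb between them. Omd had an FPKM of 0.625, 0.110 and 0.214 across WT1 to WT3, against 0.534, 0.322 and 0.714 across TG1 to TG3, and Aspn had 0.781, 0.263 and 0.113 across WT1 to WT3, against 0.805, 0.711 and 0.400 across TG1 to TG3. In both, as in Ogn, every TG library lay above WT2 and WT3, which held for 12.4% of the genes tested without WT1. Both genes were low, down to 0.110 FPKM in Omd and 0.113 FPKM in Aspn. On 1 kb of gene, 3 reads equal 0.160 to 0.190 FPKM, so these orders rest on few reads. Ecm2, at the other end of the cluster, had 1.36, 1.56 and 1.60 across WT1 to WT3, against 1.50, 1.51 and 1.11 across TG1 to TG3, and WT1 was the lowest WT library. On chromosome 10, Dcn and Lum are followed by Kera, which had an FPKM of 0.111 in TG1 and was listed at 0 in the other 5 libraries, and by Epyc, at 0.887 to 1.55 FPKM with WT1 as the lowest library. On chromosome 1, Prelp lies 116 kb from Fmod and had an FPKM of 8.48, 6.92 and 6.75 across WT1 to WT3, against 8.93, 12.4 and 7.20 across TG1 to TG3, with TG2 as the highest.

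The counts in the gene lists that follow stand against 3.13% higher and 2.78% lower at an unadjusted p under 0.05 over all genes tested, and against 29.0% in which WT1 exceeded the other WT libraries. Over the 14 other small leucine-rich proteoglycans, 12 were tested and none passed an unadjusted p under 0.05. Their median log2 fold change was 0.24, and WT1 exceeded the other WT libraries in 7 of the 12. Prelp was both the most abundant of these and the one with the smallest p (log2 fold change 0.33, standard error 0.196). Of 24 other matrix genes of fibroblasts, 23 were tested, 1 (against 3.13% of all genes) was higher and none was lower at an unadjusted p under 0.05, and the median log2 fold change was 0.16, against 0.00 over all genes tested. The 1 gene was Pcolce, an enhancer of procollagen cleavage, with an FPKM of 2.31, 1.04 and 0.978 across WT1 to WT3, against 3.59, 5.76 and 1.51 across TG1 to TG3. TG2 and TG1 were its highest libraries, which is not the order of the meningeal genes. Efemp1, the most abundant of the list, is a fibulin of elastic fibres and had an FPKM of 5.79, 3.37 and 3.78 across WT1 to WT3, against 5.55, 5.39 and 5.60 across TG1 to TG3, so that WT1 was the highest and WT2 and WT3 were the lowest. Col1a2, a chain of type I collagen, had 1.72, 0.932 and 0.765 across WT1 to WT3, against 1.60, 1.02 and 1.68 across TG1 to TG3 (log2 fold change 0.35, standard error 0.316). WT1 exceeded the other WT libraries in 15 of the 23 matrix genes tested.

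Of 28 further genes of the meninges and the arachnoid barrier, 27 were tested, 3 were higher and none was lower at an unadjusted p under 0.05, none had an adjusted p under 0.05, and their median log2 fold change was 0.41. WT1 exceeded the other WT libraries in 25 of the 27, against 29.0% of all genes tested. The most abundant was Ptgds, a prostaglandin D2 synthase that is secreted into cerebrospinal fluid and is also made by oligodendrocytes. Its FPKM was 574, 225 and 192 across WT1 to WT3, against 424, 264 and 467 across TG1 to TG3, and as in Aldh1a2 its libraries ran from WT1 through TG3, TG1, TG2 and WT2 down to WT3. The smallest p belonged to Igfbp2, a binding protein of insulin-like growth factors, with an FPKM of 18.8, 11.8 and 12.3 across WT1 to WT3, against 36.1, 63.5 and 18.5 across TG1 to TG3 (log2 fold change 1.31, standard error 0.416). The other 2 were Slc13a4, a sulfate transporter, and Bmp6, a bone morphogenetic protein. All 3 were highest in TG2, then in TG1 and then in TG3 among the TG libraries. The choroid plexus genes described below had the same order, and their part in these values was not tested. Other transporters of the arachnoid barrier were set beside Slc22a6. Slc22a8, another organic anion exchanger, had an FPKM of 5.18, 3.22 and 2.72 across WT1 to WT3, against 5.05, 5.10 and 4.39 across TG1 to TG3, whereas Slc6a13, a carrier of GABA, had 5.36, 2.22 and 1.58 across WT1 to WT3, against 3.37, 1.50 and 3.97 across TG1 to TG3.

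Aldh1a2 is the enzyme by which the meninges make retinoic acid, so the other genes of that pathway were examined. Of 21 genes of the pathway, 19 were tested, 2 were higher and 1 was lower at an unadjusted p under 0.05, against 3.13% and 2.78% of all genes tested, and the median log2 fold change was 0.15. WT1 exceeded the other WT libraries in 9 of the 19. The genes past this threshold were Rdh5, a retinol dehydrogenase, and Rara, a retinoic acid receptor, which were higher, and Crabp1, a cytosolic binding protein of retinoic acid, which was lower. Rdh5, with the smallest p, had an FPKM of 0.520, 0.617 and 1.08 across WT1 to WT3, against 2.95, 6.26 and 0.789 across TG1 to TG3, and the most abundant gene, the retinoid receptor partner Rxrb, stayed between 17.8 and 20.6 FPKM. The binding protein Crabp2, which counts among both lists, had an FPKM of 2.21, 0.421 and 0.646 across WT1 to WT3, against 0.860, 0.422 and 1.34 across TG1 to TG3, with WT1 as the highest.

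Markers of other cells that can come with meninges and vessels were set beside these values. The summed FPKM of the 10 meningeal genes was 74.5, 40.3 and 35.4 across WT1 to WT3, against 58.8, 49.4 and 60.4 across TG1 to TG3. The 20 genes of the choroid plexus epithelium summed to 101 to 130 FPKM in WT mice, 1382 in TG1, 4286 in TG2 and 109 in TG3. All 20 were tested and 11 were higher at an unadjusted p under 0.05, against 3.13% of all genes tested, with Ace at the smallest p and Ttr the most abundant, and none was at 0 in any library. The choroid plexus genes were thus highest in TG2, in which the meningeal genes were the lowest of the TG libraries. Igfbp2, Slc13a4, Bmp6, Pcolce and Rdh5, named above as higher in TG mice, also fell from TG2 through TG1 to TG3. Rara, also named above as higher, was highest in TG3. The part of the choroid plexus genes in the values above was not tested. In TG3, which lay at the WT level of the choroid plexus genes, the median of the meningeal genes was 0.59 above the WT mean.

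The 12 genes of mural cells, which include the smooth muscle of vessels on the brain surface, summed to 108, 74.9 and 74.5 FPKM across WT1 to WT3, against 105, 72.9 and 93.9 FPKM across TG1 to TG3. None of the 12 passed an unadjusted p under 0.05. The smooth muscle actin Acta2 had an FPKM of 21.7, 8.13 and 8.73 across WT1 to WT3, against 23.1, 7.24 and 15.7 across TG1 to TG3, so WT1, TG1 and TG3 were its highest libraries, as in Fmod, Aldh1a2 and Slc22a6. The 10 genes of border macrophages, which reside in the meninges and around vessels, summed to 5.04 to 6.73 FPKM in WT mice and 6.51 to 7.49 FPKM in TG mice, and 1 of the 9 tested, Stab1, was higher at an unadjusted p under 0.05. The 11 endothelial genes summed to 99.0 to 115 FPKM in WT mice and 110 to 115 FPKM in TG mice, and 2 of them, Flt1 and Slco1c1, were higher at this threshold. Astrocyte genes summed to 670 to 714 FPKM in WT mice and 693 to 717 FPKM in TG mice. Of the 9 ependymal genes tested, which line the ventricles, 3 were lower (Ccdc153, Tmem212 and Rarres2), of 10 genes of hippocampal neurons 2 were lower (Calb1 and Tdo2), against 2.78% of all genes tested, and no gene of the blood list passed this threshold. Over all genes tested, WT1 exceeded the other WT libraries in 29.0%. It did so in 13 of 20 choroid plexus, 10 of 12 mural, 7 of 9 macrophage and 5 of 11 endothelial genes tested. The count was 5 of 8 for astrocytes, 5 of 9 for ependyma, 1 of 5 for blood and 0 of 10 for neurons. None of the genes in these lists had an adjusted p under 0.05, and whether these cells contribute to the differences between libraries was not tested.

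**Figure D4:**
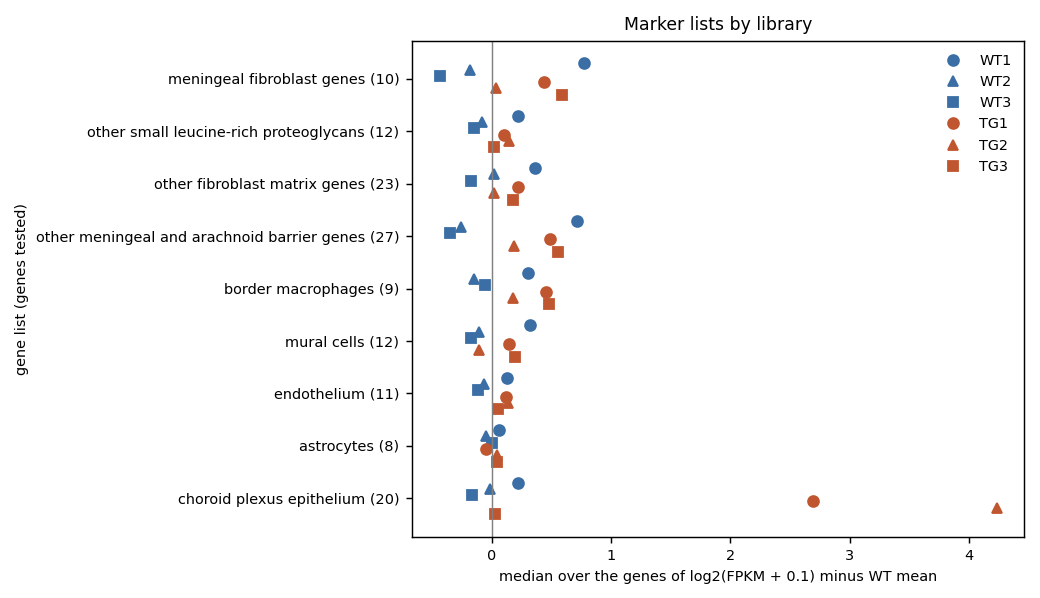
Median over each gene list of log2(FPKM + 0.1) minus the WT mean of the gene, for each library (blue WT, orange TG; circle, triangle and square for replicates 1, 2 and 3). In the list of 10 meningeal fibroblast genes and the list of 27 meningeal and barrier genes WT1 is highest and WT3 lowest. The same holds in the lists of other small leucine-rich proteoglycans, other fibroblast matrix genes and mural cells, over a narrower range. In the choroid plexus list TG1 and TG2 stand apart at 2.69 and 4.23.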

How the data were processed

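Hippocampal RNA of 3 WT and 3 TG mice was sequenced, and the only deposited file, a table of 54532 genes, was used. The authors counted reads per gene with HTSeq and deposited FPKM computed from the count and the gene length, with 1 column per library. The labels name the builds GRCm38 and mm10, and the aligner is not given in the sources used here. Trizol and a NEBNext kit are named in the methods, RNeasy and SMARTER kits in the labels. Neither strand nor the handling of reads shared between genes was stated. Reads were recovered from FPKM and gene length, with 100% of values coming out whole within 0.05 reads. On 1 kb of gene, 3 reads equal 0.160 to 0.190 FPKM. Intervals and read numbers cover counting error only where said, and PCR copies among the reads could not be identified.

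The 20952 genes that averaged 0.1 FPKM or more entered limma 3.58.1 (R 4.3.3) as log2(FPKM + 0.1), with a mean-variance trend and Benjamini-Hochberg adjustment over all of them, so fold changes of low genes are understated. This pipeline was tested on simulated data. The labels number the mice within a group and name no batch, and p-values cover the spread between these mice. Exons and shared 50-base stretches came from GENCODE M21, in which 9 of the 10 genes, all but Slc22a6, had the coordinates of the table. Scripts also ran in Python 3.11.15 with numpy 2.4.6 and matplotlib 3.10.9. The genes named were the 10 members, for each list the gene with the smallest p and that with the highest mean, and the 5 genes most alike. Further names were picked with their values in view. The members and lists were chosen with earlier results of these data known. Alternatives were pseudocounts of 1 and 0.01, no filter, a mean FPKM of at least 1, quantile normalization, robust variances, limma-voom on recovered reads, the replicate number as a block, and left-out libraries.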

Additional observations from a re-analysis of the deposited data

How the results depend on the processing

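The number of meningeal fibroblast genes with a higher TG level and an unadjusted p under 0.05 was 0 with all 6 libraries. It was also 0 under each other pseudocount, filter, scaling, variance model and limma-voom. When 1 library was left out it ran from 0 to 6, with 6 without WT1, against 3.66% of the genes tested there. Leaving out WT1, which lay above the WT mean in every member, had to raise every fold change. The number with every TG library above every WT library ran from 0 to 8 over the same fits. It was 8 without WT1, against 12.4% of the genes tested. Without TG1 and TG2 it was 2, against 23.4% of the genes tested, where the single TG library is assumed to vary like the WT libraries. The median log2 fold change lay between 0.22 (pseudocount of 1) and 0.39 (mean FPKM of at least 1, which drops Slc47a1) when all libraries were kept, and between 0.07 without WT3 and 0.75 without WT1, with 0.20 without WT2, 0.20 without TG3 and 0.50 without TG2. Some fold changes turned sign when 1 library was left out. They ran from -0.18 to 0.23 in Dcn, from -0.10 to 0.25 in Lum, from -0.032 to 0.30 in Mgp, from -0.28 to 0.87 in Slc22a6 and from -0.094 to 0.32 in Slc47a1, so their direction rests on single libraries. The other 5 stayed positive, from 0.26 to 1.27 in Aebp1, from 0.18 to 1.21 in Fmod, from 0.14 to 1.05 in Ogn, from 0.10 to 1.04 in Aldh1a2 and from 0.10 to 0.63 in Islr. The median coefficient of variation in WT mice ran from 21.7% without WT1 to 55.7% without WT2, and that in TG mice from 13.3% to 16.7%. The cause of these changes was not tested. With the replicate number as a block (replicate block), 0 genes passed and the median was 0.34. Deviations of same-numbered libraries correlated at 0.013, 0.043 and 0.003, so the numbers were not taken as pairs, and WT3 correlated better with TG1 than with TG3. Depth limits Slc47a1 most, with 21 to 47 reads.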
